A study of Mus musculus with 2 samples.

Results

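Oxidative phosphorylation genes were taken as all genes whose symbols begin like the subunits of the 5 respiratory complexes: Nduf (a, b, c, s or v followed by a digit), Cox4 to Cox8, Uqc, Atp5, the 4 Sdh genes, and the protein-coding genes of mitochondrial DNA. The rule reads the symbols alone. The rule found 100 genes of the 28692 in the count tables, of which 87 lie in the nucleus and 13 in mitochondrial DNA. Primary hepatocytes from the liver of C57BL/6 mice had been grown embedded in growth-factor reduced matrigel and profiled by droplet single-cell RNA sequencing, 1 library for each of 2 media. The induction medium held dexamethasone (3 uM) with EGF (25 ng/mL) and HGF (50 ng/mL). The expansion medium held the GSK3 inhibitor CHIR99021 (3 uM), TNF (100 ng/mL) and the same doses of EGF and HGF. Both media shared William E medium with nicotinamide (100 mM), N-acetylcysteine (1.25 mM), the ROCK inhibitor Y27632 (10 uM), the TGF-beta receptor inhibitor A83-01 (1 uM), B27, N2, Glutamax, non-essential amino acids and antibiotics. The media differ in 3 agents at once, and with 1 library per medium there is no replicate check: medium, culture and library cannot be told apart, and all intervals are 95% intervals for counting error only.

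The inner mitochondrial membrane carries an electron transport chain that passes electrons from NADH (complex I) and succinate (complex II) through ubiquinone, complex III and cytochrome c to oxygen at complex IV, and pumps protons on the way. Complex V, ATP synthase, lets the protons flow back and makes ATP. Complexes I, III, IV and V are built from products of both genomes, whereas complex II is encoded in the nucleus alone, and hepatocytes, with their dense mitochondria, rely on the pathway for urea synthesis, gluconeogenesis and fat oxidation.

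After cells with under 500 genes or over 25% mitochondrially encoded UMIs had been left out, 1245 cells with 9201887 UMIs remained in the induction library and 1191 cells with 29390000 UMIs in the expansion library. A UMI is a molecular tag that counts 1 captured transcript. The median cell held 6765 UMIs in the induction library and 23184 in the expansion library, so levels are given as CPM, the library's UMIs of a gene scaled to a common total, and as log2 ratios of induction over expansion. Among 8480 genes of at least 50 UMIs in each of the 2 libraries, the median log2 ratio was 0.22. A gene at 0.22 thus kept pace with the typical gene, and a ratio between 0 and 0.22 is higher on the CPM scale but lower relative to that gene. Ribosomal protein genes took 22.5% of UMIs in the induction library and 33.1% in the expansion library. CPM and shares of all UMIs given below are of totals that hold these genes. The part of ribosomal protein RNA in them was not tested. The 10 hepatocyte markers were all detected, with summed levels of 57829 CPM in the induction library and 36991 CPM in the expansion library. Most of that gap was Alb, at 19450 CPM in the induction library and 1737 CPM in the expansion library. Trf (9661 CPM in the induction library, 14800 CPM in the expansion library) went the other way. So did Serpina1b (9252 CPM in the induction library, 11486 CPM in the expansion library), and the other markers were higher in the induction library. The 6 cholangiocyte markers summed to 746 CPM in the induction library and 1426 CPM in the expansion library. Most of this was Spp1, at 661 CPM in the induction library (30.4% of cells) and 1307 CPM in the expansion library (99.7% of cells). Sox9 had 74.8 CPM in the induction library (38.3% of cells) and 103 CPM in the expansion library (84.7% of cells). Krt7 was at 0 in both. The stellate and fibroblast list had 180 CPM in the induction library and 402 CPM in the expansion library. Its sum was nearly all Rgs5, with Col1a1 and Col3a1 at 0 in both. The remaining liver and blood cell lists were at 34.2 CPM or less in the induction library and 39.4 CPM or less in the expansion library. The part of these markers in the results was not tested. The libraries shared 4 cell barcodes.

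Short stretches around 2 sequence motifs show what several of the nuclear members have at their start sites, and they include the highest and the lowest ratio between media among nuclear members above 100 CPM. Promoter windows from RefSeq (build GRCm38.p6, 250 bases before to 50 after each start site) matched 67 of the 87 nuclear members, and 66 of these were measured. The letters CGCATGCG, the core of the site for NRF1, a factor known to act on genes of the respiratory chain, lay in the windows of 9 of the 66. Each is given 5′ to 3′ on the gene's strand with the motif in capitals.

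Ndufa8: tcgctggagaCGCATGCGcagatggtac

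Cox6a1: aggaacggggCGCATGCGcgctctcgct

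Ndufa11: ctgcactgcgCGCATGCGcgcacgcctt

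Atp5j: ggccagaataCGCATGCGtacagtgcag

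Uqcr11: atcgccttcaCGCATGCGctatacgtct

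Uqcrc1: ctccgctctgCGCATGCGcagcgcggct

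Atp5l: aaccaataaCGCATGCGcatttccccc

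Atp5g2: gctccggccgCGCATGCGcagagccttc

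Atp5k: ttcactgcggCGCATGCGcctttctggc

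These stretches run in the order of the genes' ratios between the libraries, from Ndufa8 at 0.90 to Atp5k at -0.44 on the log2 scale. Genes with the same 8 letters near the start site thus lay on both sides of a ratio of 1. The Ndufa8 stretch lies at chr2:36049330-36049357 on the minus strand with the motif 9 bases before the start site, and the Atp5k stretch at chr5:108434431-108434458 on the minus strand with the motif 49 bases before it. The letters CAAGGTCA, the extended site of the estrogen-related receptors, which act on energy metabolism, lay in 5 windows. The capitals mark the motif as read on the gene's strand, where 4 of the 5 hold its reverse complement.

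Uqcc3: gaaattgaacCAAGGTCAtttgggagag

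Sdhd: ggttgtagagTGACCTTGagccct

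Ndufs5: ttctcgagtgTGACCTTGctcaagtagc

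Atp5l: aggggcagccTGACCTTGgaaatgggga

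Atp5g3: tgttacaaagTGACCTTGagcgtcttcc

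Searched on both strands, the NRF1 letters were in the windows of 13.6% of the 66 measured nuclear members, 4.91% of 5536 other measured genes and 1.87% of all 32851 windows. The letters of the estrogen-related receptors were in 7.58% of the members, 1.26% of the other measured genes and 1.56% of all windows. The YY1 letters AAGATGGC were in 15.2% of the members (10 genes), 6.14% of the other measured genes and 2.75% of all windows. The ETS family letters CCGGAAGT, bound by GABP, went the other way, with 7.58% of the members against 10.6% of the other measured genes and 3.89% of all windows. The members had 1.08 windows per gene and the other measured genes 1.29, so members had slightly less sequence searched. The median log2 ratio was 0.29 for the 9 members with the NRF1 letters and 0.18 for the 57 without, and 0.38 for the 5 with the receptor letters and 0.19 for the 61 without. For YY1 it was 0.16 with the letters and 0.19 without, and for the ETS letters 0.11 with and 0.19 without. A match is a stretch of letters, not a site shown to be bound.

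The 250 bases before the start sites of Ndufa8 (chr2:36049339-36049588, minus strand) and Atp5k (chr5:108434400-108434649, minus strand) are given whole because these 2 nuclear genes stood furthest apart among members above 100 CPM while sharing the motif.

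Ndufa8: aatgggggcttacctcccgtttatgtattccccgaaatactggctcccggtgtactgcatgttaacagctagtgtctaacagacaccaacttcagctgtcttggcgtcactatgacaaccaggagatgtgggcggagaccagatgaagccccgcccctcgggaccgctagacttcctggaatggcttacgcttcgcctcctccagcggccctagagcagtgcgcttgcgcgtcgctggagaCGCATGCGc

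Atp5k: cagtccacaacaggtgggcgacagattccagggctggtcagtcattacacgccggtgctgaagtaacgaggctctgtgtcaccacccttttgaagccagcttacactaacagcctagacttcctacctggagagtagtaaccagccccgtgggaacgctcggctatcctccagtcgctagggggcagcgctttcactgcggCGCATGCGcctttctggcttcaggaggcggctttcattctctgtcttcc

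Taken as a whole, the nuclear members made up 3.54% of UMIs in the induction library and 3.10% in the expansion library, a log2 ratio of 0.19 (0.19 to 0.20). That is the level of the typical gene: scaled to the median gene the ratio was -0.025, and on a total without mitochondrially encoded and ribosomal protein genes it was -0.032, so its sign flips with the scaling. As a share of the UMIs outside those 2 classes, the nuclear members held 5.01% in the induction library and 5.12% in the expansion library. The mitochondrially encoded members made up 6.75% of UMIs in the induction library and 6.35% in the expansion library, a log2 ratio of 0.089, which becomes -0.13 scaled to the median gene and -0.14 on the smaller total. It was also negative, at -0.056, where cells had at least 1000 genes and at most 10% mitochondrially encoded UMIs. There were 1.91 mitochondrially encoded UMIs for every nuclear-encoded one in the induction library and 2.05 in the expansion library, a quantity that no scaling changes.

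Of the 100 members, 91 reached 10 CPM in the higher library and are called measured: 79 nuclear and 12 mitochondrial. None of the 91 was at least 2-fold apart between the libraries with an interval that excludes a ratio of 1, where 12.3% of all 7220 measured genes were (891 genes). At least 1.5-fold apart were 10 of the 91, where 28.3% of all measured genes were. Of these, 8 were higher in the induction library (Ndufa8, Uqcrq, Atp5sl, Ndufa4, mt-Nd5, Ndufb4, Sdha and Ndufs6) and 2 were lower (Cox7a1 and mt-Nd3). Relative to the median gene 1 member was at least 2-fold apart, Cox7a1, which was lower in the induction library, against 11.3% of all measured genes. Of the 10, all but Atp5sl kept their sign under every other choice of cells and scaling tried; over the 91, 40 changed sign under at least 1 of them.

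The members also kept closer together than genes at large. Among genes of at least 100 CPM in the higher library, the log2 ratios of 69 nuclear members had an SD over genes of 0.27, and those of all 1268 such genes an SD of 1.24. Within 0.5 of their own median lay 94.2% of those nuclear members and 60.1% of all genes. The median log2 ratio of the 79 measured nuclear members was 0.21, as it was over all 7220 measured genes. Genes are not replicates, so these spreads describe the 2 libraries.

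**Figure D1:**
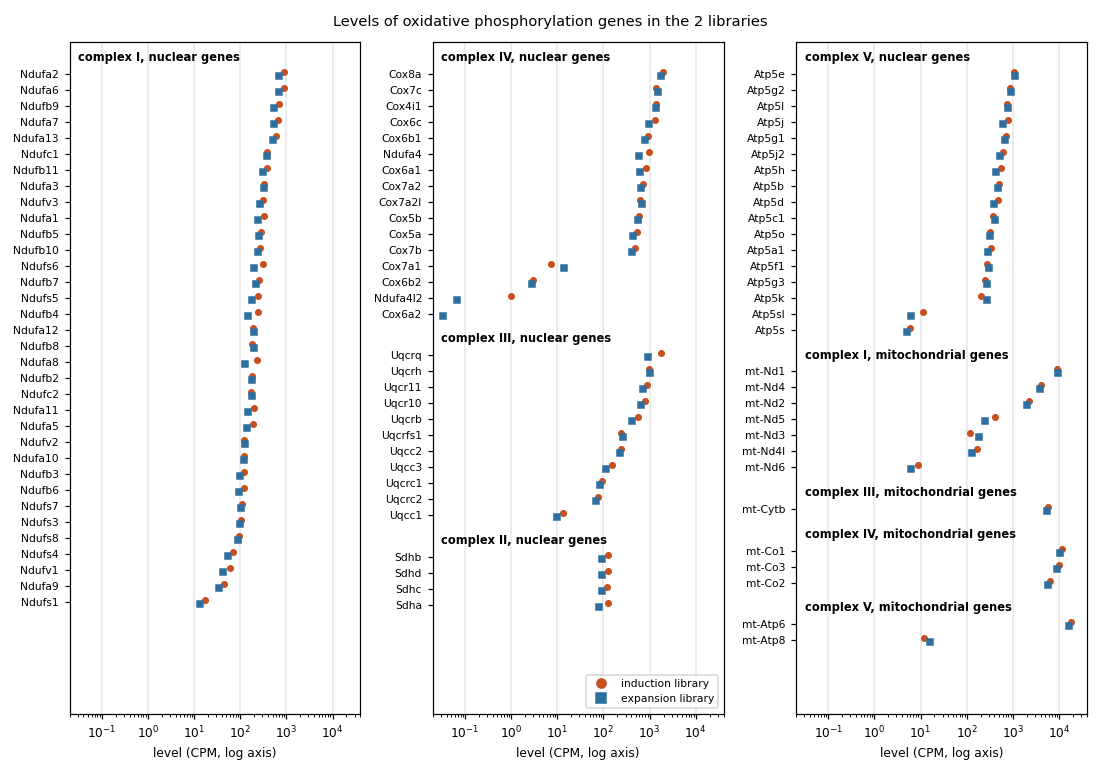
Levels in CPM (log axis) of the 96 members with UMIs in at least 1 library, 1 of them not drawn, by complex and genome, with the induction library as circles and the expansion library as squares. Both marks lie close together for nearly every gene, while levels run from under 1 CPM for rare isoforms to 17764 CPM in the induction library and 16715 CPM in the expansion library for mt-Atp6.

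The nuclear parts of the complexes did not move alike. Complex II had the highest ratio of its summed level, 492 CPM in the induction library against 359 CPM in the expansion library (log2 ratio 0.45). Complex III followed with 5780.1 CPM in the induction library and 4509.5 CPM in the expansion library (0.36), and complex I with 9424 CPM in the induction library and 7906 CPM in the expansion library (0.25). Complexes IV and V came last: complex IV had 11629 CPM in the induction library and 10426 CPM in the expansion library (0.16), and complex V had 8110.1 CPM in the induction library and 7776 CPM in the expansion library (0.061). Differences between complexes within a library do not depend on the scaling, and complex II exceeded complex V by 0.39 in log2 ratio. This order was the same in 7 of 8 other ways of choosing or weighting cells. The exception was thinning every cell to 2000 UMIs, where complex III (0.43) stood above complex II (0.40). The difference of complex II over complex V ran between 0.35 and 0.44 in these 8, and that of complex III over complex V between 0.23 and 0.38. The place of complex III rested on 1 gene, however: in a sum chosen after the values were seen, without Uqcrq, its log2 ratio was 0.18, below complex I. Leaving out the gene of the highest ratio left complex II (without Sdha) at 0.39, complex I (without Ndufa8) at 0.24 and complex IV (without Ndufa4) at 0.11.

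The mitochondrial parts gave another picture. The 7 complex I genes of mitochondrial DNA summed to 15941 CPM in the induction library and 15954 CPM in the expansion library (log2 ratio -0.0012), beside 0.25 for the nuclear complex I genes. Cytochrome b of complex III, mt-Cytb, had 5736 CPM in the induction library and 5580.4 CPM in the expansion library (0.040). The 3 catalytic subunits of complex IV summed to 28096 CPM in the induction library and 25228 CPM in the expansion library (0.16), the same ratio as the nuclear part of complex IV to 2 decimals. The pair of complex V genes gave 17775 CPM in the induction library and 16731 CPM in the expansion library (0.087).

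**Figure D2:**
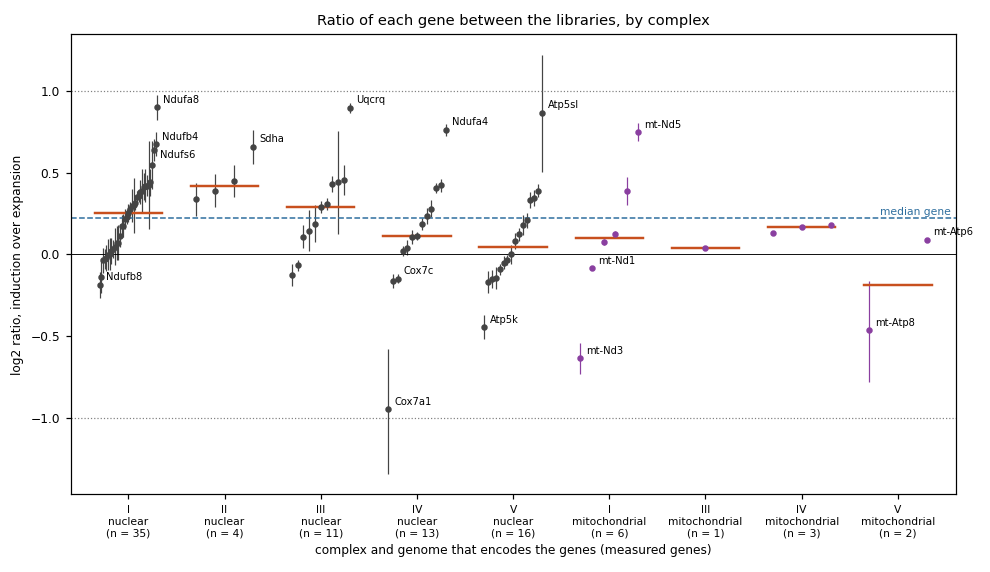
Log2 ratio of induction over expansion (vertical axis) of each measured member with its counting interval, by complex and encoding genome (horizontal axis), with the median of each class as a short bar, the median gene as a dashed line and 2-fold as dotted lines. All 4 complex II genes lie above the median gene, nuclear complex V genes spread to both sides of 0, and no point passes 2-fold.

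Complex I, NADH dehydrogenase, has 7 nuclear core subunits that carry electrons and many accessory subunits around them. The accessory subunits as a class stood above the core: 28 accessory genes summed to 8796 CPM in the induction library and 7302 CPM in the expansion library (log2 ratio 0.27), and the 7 core genes to 628 CPM in the induction library and 604 CPM in the expansion library (0.057). Ndufa8, an accessory subunit of the intermembrane space face, had the highest log2 ratio of the measured members, 234 CPM in the induction library against 125 CPM in the expansion library (0.90, 0.82 to 0.97). UMIs of Ndufa8 (chr2:36036326-36049406, minus strand) were found in 67.1% of induction cells and 84.4% of expansion cells, a share that follows the depth of the cells and runs against the levels.

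Ndufb4, an accessory subunit of the membrane arm, had 239 CPM in the induction library and 150 CPM in the expansion library (0.67). Ndufs6, an accessory subunit that binds zinc, had 304 CPM in the induction library and 195 CPM in the expansion library (0.64). The abundant accessory genes Ndufa2 and Ndufa6 had 881 and 878 CPM in the induction library, against 691 and 685 CPM in the expansion library, with log2 ratios of 0.35 and 0.36. Among the core genes, Ndufv1, which binds the flavin that takes electrons from NADH, stood highest with 60.5 CPM in the induction library and 41.4 CPM in the expansion library (0.55). Its partner Ndufv2 was among the lowest of the complex, with 118 CPM in the induction library and 130 CPM in the expansion library (-0.14). The lowest nuclear ratio of complex I was that of Ndufb8, a membrane arm subunit whose protein is often used to judge complex I assembly, with 177 CPM in the induction library and 201 CPM in the expansion library (-0.18). Over the 35 nuclear genes, the interval lay above a ratio of 1 for 23, below it for 2 and held it for 10. Over all 7220 measured genes it lay above for 3671, below for 1340 and held it for 2209. Against the median gene, 14 of the 35 had intervals above and 13 below, beside 2280 and 2393 of all measured genes.

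The mitochondrial complex I genes held the widest contrast among neighbours on 1 genome. mt-Nd5 had 419 CPM in the induction library and 250 CPM in the expansion library (log2 ratio 0.75, 0.69 to 0.80). mt-Nd3 had 120 CPM in the induction library and 186 CPM in the expansion library (-0.63, -0.73 to -0.54). Both encode membrane arm subunits, mt-Nd5 that of the far proton channel, and both are transcribed from the same strand of mitochondrial DNA, yet their ratios lay on opposite sides of 1.

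mt-Nd1, the most abundant of the 7 genes, had 8918 CPM in the induction library and 9468 CPM in the expansion library (-0.086). mt-Nd4 had 4115 CPM in the induction library and 3901 CPM in the expansion library (0.077). For mt-Nd2 the levels were 2191 CPM in the induction library and 2012 CPM in the expansion library (0.12), so these abundant genes stayed near a log2 ratio of 0. mt-Nd4l, which overlaps mt-Nd4 on the same RNA, took 3.96% of the UMIs of the pair in the induction library and 3.23% in the expansion library. mt-Nd6, the member on the other strand of mitochondrial DNA and overlapped there by mt-Nd5, had 81 UMIs (8.80 CPM) in the induction library and 180 UMIs (6.12 CPM) in the expansion library, and was not counted as measured. How reads on overlapping mitochondrial genes were assigned is not given in the sources used here, so the split within overlapping pairs is uncertain.

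Complex II, succinate dehydrogenase, is also an enzyme of the tricarboxylic acid (TCA) cycle, and its 4 genes all had intervals above the median gene. So did 2280 of all 7220 measured genes. Sdha, the flavoprotein that oxidises succinate, had 125 CPM in the induction library and 79.2 CPM in the expansion library (log2 ratio 0.66, 0.55 to 0.76). The iron-sulfur subunit Sdhb had 126 CPM in the induction library and 92.4 CPM in the expansion library (0.45). The membrane anchors Sdhc and Sdhd had 117 and 123 CPM in the induction library, against 93.1 and 94.0 CPM in the expansion library, with ratios of 0.34 and 0.39. The 4 genes stayed positive under every other choice of cells and scaling tried, with lowest ratios of 0.43 for Sdha, 0.22 for Sdhb, 0.16 for Sdhd and 0.11 for Sdhc. Complex II is the smallest of the 5 in RNA, at 0.049% of UMIs in the induction library and 0.036% in the expansion library.

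Complex III, the cytochrome bc1 complex, was led by Uqcrq, a small subunit known as a ubiquinone-binding protein. It had 1729.9 CPM in the induction library and 930 CPM in the expansion library (log2 ratio 0.89, 0.87 to 0.92), and was the 111th most abundant gene in the induction library and the 151st in the expansion library. Uqcrb, another small subunit, had 569 CPM in the induction library and 422 CPM in the expansion library (0.43). Uqcrh, the hinge protein, did not share this, with 988 CPM in the induction library and 1035 CPM in the expansion library (-0.067). Uqcrfs1, the Rieske iron-sulfur protein that hands electrons on, had 244 CPM in the induction library and 266 CPM in the expansion library (-0.13), so members of the same complex stood on both sides of a ratio of 1. The core proteins Uqcrc1 and Uqcrc2 lay between, at 0.19 and 0.15. The assembly factors Uqcc1, Uqcc2 and Uqcc3 had ratios of 0.44, 0.11 and 0.45.

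Without Uqcrq the complex III sum was 4050 CPM in the induction library and 3579 CPM in the expansion library, and the other 7 nuclear subunits reached at most 0.43. The median over the 11 nuclear complex III genes was 0.29, beside 0.36 for the sum with Uqcrq. Uqcrq kept its direction under each choice of cells and scaling tried, between 0.67 and 1.04. No other annotated gene shares 95 or more bases with it at 98% identity.

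Complex IV, cytochrome c oxidase, holds Cox8a, the most abundant nuclear member in both libraries. It had 1928 CPM in the induction library and 1783 CPM in the expansion library (log2 ratio 0.11). Cox4i1 had 1379 CPM in the induction library and 1360.1 CPM in the expansion library (0.020), and Cox7c, another small subunit, had 1371 CPM in the induction library and 1520.4 CPM in the expansion library (-0.15). Ndufa4, named for complex I but now placed in complex IV, stood well above them with 975 CPM in the induction library and 576 CPM in the expansion library (0.76, 0.72 to 0.80). Cox6a1 and Cox6c followed at 0.42 and 0.41, and Cox7a2l, which helps to join complexes III and IV into supercomplexes, was at -0.16 with 622 CPM in the induction library and 697 CPM in the expansion library. The 10 regular nuclear subunits summed to 10020 CPM in the induction library and 9136.5 CPM in the expansion library (0.13).

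Several complex IV subunits exist in tissue isoforms, and the liver forms made up nearly all UMIs in both media. Cox4i2 (lung and hypoxia), Cox8b (heart and muscle), and Cox7b2 and Cox8c (testis) had 0 UMIs in both libraries. For Cox4i2 this allows a share of up to 0.0236% of subunit 4 UMIs in the induction library and up to 0.00751% in the expansion library, where 0 UMIs allow at most 3. Cox6a2, the heart and muscle form of 6a, had 0 UMIs in the induction library and 1 UMI in the expansion library. Cox7a1, the heart and muscle form of 7a, was the exception that reached 10 CPM, with 7.39 CPM in the induction library and 14.3 CPM in the expansion library (log2 ratio -0.95, -1.34 to -0.58). It took 1.04% (Clopper-Pearson 0.806 to 1.31) of 7a UMIs in the induction library and 2.13% (1.93 to 2.34) in the expansion library, while Cox7a2 took the rest. Cox7a1 UMIs came from every cluster of cells described below, at 3.39 to 11.5 CPM in the induction library and 4.56 to 19.9 CPM in the expansion library.

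Cox6b2, the testis form of 6b, was rare in both libraries, with 27 UMIs in the induction library (0.320% of 6b UMIs) and 82 UMIs in the expansion library (0.346%). Those UMIs were not spread evenly. In the expansion library 42 of the 82 lay in 13 of the 35 cells of cluster 4 (38.3 CPM), and the other clusters were between 0.428 and 3.00 CPM. In the induction library 17 of the 27 lay in 7 of the 89 cells of cluster 4 (18.8 CPM) and 7 in 3 cells of cluster 3. Both clusters numbered 4 had Gm12603 among their 5 leading genes. Ndufa4l2, a paralog of Ndufa4 known to be induced in hypoxia, had 9 UMIs in the induction library and 2 UMIs in the expansion library; 7 of the 9 lay in induction cluster 5.

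Complex V, ATP synthase, consists of a catalytic F1 head and a membrane part with its stalks (Fo). Both classes had low ratios: the 5 F1 genes summed to 2755 CPM in the induction library and 2655.5 CPM in the expansion library (log2 ratio 0.053), and the 10 Fo and stalk genes to 5338 CPM in the induction library and 5109 CPM in the expansion library (0.063). Within the head the catalytic Atp5b had 494 CPM in the induction library and 466 CPM in the expansion library (0.084). Atp5d of the central stalk had 486 CPM in the induction library and 387 CPM in the expansion library (0.33), and Atp5c1, the rotating gamma subunit, had 364 CPM in the induction library and 404 CPM in the expansion library (-0.15). Subunits that sit side by side in the enzyme thus differed in sign, and none of them passed 1.5-fold.

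Atp5k, subunit e of the membrane part that takes part in pairing ATP synthases, had the lowest ratio of the abundant nuclear members, with 206 CPM in the induction library and 280.3 CPM in the expansion library (-0.44, -0.52 to -0.37). It stayed below 0 under each choice of cells and scaling tried, from -0.67 to -0.42. Atp5j and Atp5h of the peripheral stalk were the highest of the Fo and stalk genes at 0.39 and 0.35. The 7 nuclear complex V genes with intervals below a ratio of 1 were Atp5k, Atp5f1, Atp5c1, Atp5g3, Atp5g2, Atp5l and Atp5e, and 8 nuclear ones had intervals above it. Over all 7220 measured genes, 1340 had intervals below and 3671 above. Against the median gene, 10 nuclear complex V genes had intervals below and 4 above, beside 2393 and 2280 of all measured genes.

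Subunit c, which forms the rotating ring, is made by 3 genes with the same mature protein. Atp5g1 gave 39.2% of their UMIs in the induction library and 35.6% in the expansion library, and Atp5g2 gave 47.0% in the induction library and 49.4% in the expansion library. Atp5g3 gave 13.8% in the induction library and 15% in the expansion library. The Atp5g1 share, the one of the 3 that was larger in the induction library, had counting intervals of 38.5 to 39.98% in the induction library and 35.1 to 36.0% in the expansion library, which do not overlap. Atp5sl had 11.5 CPM in the induction library and 6.33 CPM in the expansion library (log2 ratio 0.86) and Atp5s 5.76 CPM in the induction library and 5.21 CPM in the expansion library (0.15). Both are named for a coupling factor and are not subunits of the enzyme, and both rest on under 200 UMIs per library.

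The mitochondrial complex V genes share 1 RNA, in which mt-Atp8 overlaps mt-Atp6. mt-Atp6 had 17764 CPM in the induction library and 16715 CPM in the expansion library (log2 ratio 0.088) and was the second most abundant gene of either library. mt-Atp8 had 11.7 CPM in the induction library, 108 UMIs or 0.0660% of the UMIs of the pair, and 16.2 CPM in the expansion library, 476 UMIs or 0.0968%.

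Genes that serve the chain without matching the symbol rule stood near the members. The 5 further subunits and partners on the list, cytochrome c (Cycs) among them, had a median log2 ratio of 0.24 and no call at 2-fold, and Cycs had 172 CPM in the induction library and 136 CPM in the expansion library. Of 31 measured assembly factors, 1 was at least 2-fold higher in the induction library and none was lower (median 0.25). Of 12 measured genes that copy, transcribe or process mitochondrial DNA and RNA none was called (median 0.39), with Polg, its DNA polymerase, at 25.6 CPM in the induction library and 14.9 CPM in the expansion library (0.78). Of 9 measured regulators of mitochondrial biogenesis 1 was higher: Sirt3, a mitochondrial deacetylase, had 26.5 CPM in the induction library and 6.805 CPM in the expansion library (1.96). None of these lists holds a gene of the symbol rule.

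In neighbouring pathways the share of calls was also read against 12.3% of all measured genes. Of 18 measured TCA cycle genes 2 were at least 2-fold higher in the induction library and none lower (median 0.36): Suclg2 (96.4 CPM in the induction library, 43.3 CPM in the expansion library) and Pdhb (44.4 CPM in the induction library, 21.5 CPM in the expansion library). Complex II, at a median of 0.42, lay nearer to the TCA cycle genes than to nuclear complex V at 0.042. This was not particular to the TCA cycle: the genes that copy, transcribe or process mitochondrial DNA and RNA lay nearer still, at 0.39. Of 22 measured carriers and import genes 1 was higher, the aspartate and glutamate carrier Slc25a13 (1.03), and the list's median was -0.088, with the ADP and ATP carrier Slc25a4 at 299.5 CPM in the induction library and 462 CPM in the expansion library (-0.62). Of 10 measured glycolysis genes 1 was higher, Gpi1 (379 CPM in the induction library, 142 CPM in the expansion library), with a median of 0.27. Of 6 measured genes of the hypoxia response 2 were higher and 1 lower, Bnip3 at 1.15 and Egln3 at -1.55. Of 8 genes of mitochondrial redox defence none was called (median 0.25). These counts of 0 to 3 per list are descriptions of the 2 libraries, with no test between lists.

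Cells were compared after each had been thinned to 2000 UMIs, which left out 14 induction cells and no expansion cell. The nuclear members took a median of 3.50% of a cell's UMIs in the induction library and 3.00% in the expansion library, with the middle 90% of cells between 2.05 and 5.10% in the induction library and between 1.95 and 4.40% in the expansion library. Without thinning the medians were 3.50% in the induction library and 3.04% in the expansion library. Every cell of both libraries held nuclear member UMIs. The mitochondrially encoded members took a median of 6.75% in the induction library and 6.30% in the expansion library, and here the spread differed more than the middle: 3.05 to 15.1% for the middle 90% of induction cells and 3.90 to 10.98% for the middle 90% of expansion cells. The lowest cell had 0.05% in the induction library and 0.30% in the expansion library.

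Across cells the complexes of 1 genome moved together and the 2 genomes did not. All correlations here are Spearman coefficients over 1231 induction cells and 1191 expansion cells, which share their library and a fixed total of UMIs. Between the nuclear parts of complexes I, III, IV and V they ran from 0.38 to 0.53 in the induction library and from 0.29 to 0.44 in the expansion library. Between the mitochondrial parts of the same complexes, over the 4 pairs computed, they ran from 0.74 to 0.83 in the induction library and from 0.54 to 0.71 in the expansion library. Between all nuclear and all mitochondrially encoded members the coefficient was -0.13 in the induction library and -0.23 in the expansion library, and within complex I, whose subunits come from both genomes, it was -0.12 in the induction library and -0.18 in the expansion library. As a share of the UMIs outside mitochondrial genes, the nuclear members had a coefficient of 0.0056 with the mitochondrially encoded share in the induction library and -0.15 in the expansion library.

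Depth and other RNA classes moved with these shares. The mitochondrially encoded share had a coefficient of -0.46 with a cell's total of UMIs in the induction library and -0.45 in the expansion library. Cells were ranked by that share and divided into 4 classes of equal size. In the class with the highest share (median 11.4% in the induction library, 8.95% in the expansion library) the median cell had 5162 UMIs in the induction library and 18120 UMIs in the expansion library. In the class with the lowest share, with medians of 3.98% in the induction library and 4.6% in the expansion library, it had 8386 UMIs in the induction library and 28940 UMIs in the expansion library. The nuclear share had almost no relation to depth (0.012 in the induction library, 0.095 in the expansion library) but a negative one to the ribosomal protein share (-0.33 in the induction library, -0.43 in the expansion library). With the summed hepatocyte markers it had a coefficient of 0.24 in the induction library and 0.17 in the expansion library. What part depth or ribosomal protein RNA plays in the shares was not tested.

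Single nuclear members varied between cells little more than random sampling of UMIs would give, a ratio of variance to mean of 1. Among members with a mean of 1 to 5 UMIs per thinned cell, the median ratio was 1.17 over 27 genes in the induction library and 1.12 over 24 genes in the expansion library. Other genes at that level had 1.5 over 166 genes in the induction library and 1.32 over 115 genes in the expansion library. Uqcrq was the most variable of these members in the induction library at 1.64. The order was the other way at a mean of 0.1 to 1 UMIs, where more of the members lay. There the members had a median of 1.08 over 47 genes in the induction library and 1.07 over 48 genes in the expansion library. Other genes in that range had 1.05 over 1967 genes in the induction library and 1.04 over 1659 genes in the expansion library. The 7 abundant mitochondrially encoded members (5 to 50 UMIs per cell) had higher ratios, with a median of 6.45 in the induction library and 3.86 in the expansion library. Other genes in that range had 2.25 in the induction library and 1.64 in the expansion library. Of the 7, mt-Atp6 led in both libraries, at 13.9 in the induction library and 6.49 in the expansion library. Means were not matched within the range, and the part of abundance in these ratios was not tested.

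Cells of each library were clustered without the members and without other mitochondrial genes, so the members did not shape the clusters; both libraries gave 7 clusters, named here by number and leading genes. In both, the cluster led by the acute-phase genes Saa2, Saa1, Orm1 and Orm2 had the highest nuclear share: 4.04% in induction cluster 1 (326 cells) and 3.69% in expansion cluster 2 (194 cells). Both also had the lowest ribosomal protein share of their library, 16.8% in induction cluster 1 and 25.5% in expansion cluster 2. As a share of UMIs outside mitochondrial and ribosomal protein genes, the nuclear members held 5.32% in induction cluster 1, still the highest of its library, and 5.42% in expansion cluster 2, where cluster 6 was higher at 5.55%. The lowest nuclear and the lowest mitochondrially encoded shares stood together in both libraries. Induction cluster 4 (89 cells, led by Sprr1a and Serpine2) had 3.07% nuclear and 4.71% mitochondrially encoded, with the nuclear share of induction cluster 6 (3.09%) within counting error of it. Expansion cluster 4 (35 cells, led by S100a6 and Lgals3) had 2.55% nuclear and 4.71% mitochondrially encoded. Both had the highest ribosomal protein share of their library, 32.2% in induction cluster 4 and 40.6% in expansion cluster 4. As a share of the UMIs outside mitochondrial and ribosomal protein genes, expansion cluster 4 was still the lowest of its library at 4.66%, whereas in the induction library cluster 6 was the lowest at 4.49% and cluster 4 had 4.87%.

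The mitochondrially encoded share was highest in induction clusters 2 (270 cells, with Pnpla7 among its leading genes) and 6 (139 cells, led by Fam13a), at 8.46% and 8.39%, and in expansion cluster 5 (125 cells, led by H19 and Apoa2), at 8.10%. Their median cells held 5405.5, 5967 and 19418 UMIs, fewer than those of their libraries. Both clusters numbered 4 were the deepest, at 10377 (induction) and 30089 UMIs (expansion). Induction cluster 5 (6123 UMIs) and expansion cluster 6 (19708 UMIs) were also shallow, with shares of 5.48% and 5.82%. The part of depth in these shares was not tested. In induction cluster 6 and expansion cluster 5 the nuclear share was low at the same time, 3.09% in induction cluster 6 and 2.82% in expansion cluster 5. The clusters led by cell cycle genes lay in the middle of both measures, with 3.25% nuclear and 6.45% mitochondrially encoded in induction cluster 7 (86 cells) and 3.13% nuclear and 6.40% mitochondrially encoded in expansion cluster 3 (254 cells).

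**Figure D3:**
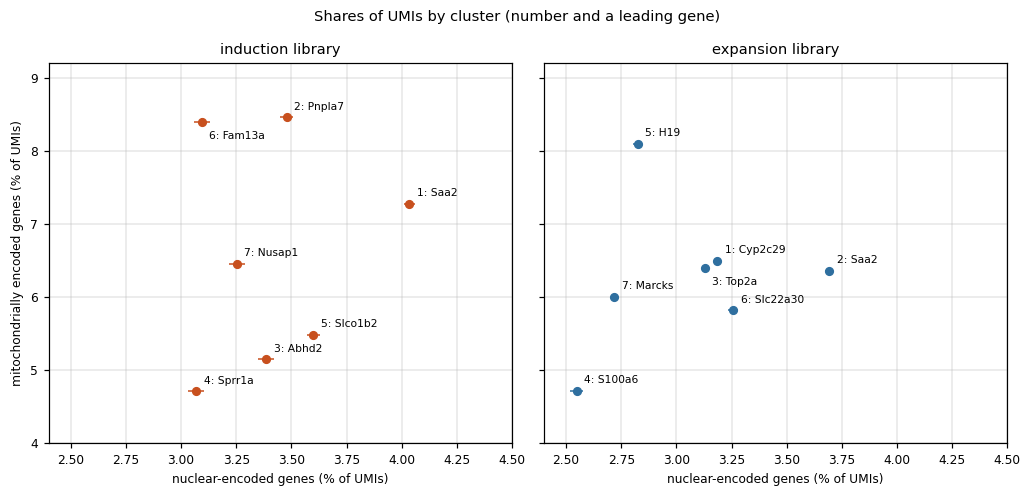
Share of UMIs of nuclear-encoded members (horizontal axis, %) and mitochondrially encoded members (vertical axis, %) in each cluster of the induction library (left) and the expansion library (right), with counting intervals, labelled by cluster number and a leading gene. The Saa2 clusters lie furthest right in both panels, at 4.04% in the induction library and 3.69% in the expansion library, and both clusters numbered 4 lie at the bottom at 4.71%.

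Single members also differed between clusters. Of the members at 20 CPM or more in every cluster, 86 in each library, 31 in the induction library and 20 in the expansion library differed at least 2-fold between their highest and lowest cluster. That is 36.1% of these members in the induction library and 23.3% in the expansion library, where the share over all genes of that level was 55.0% of 3088 genes in the induction library and 37.0% of 2976 genes in the expansion library. The other genes shaped the clusters and the members did not, so the shares are a description only. The widest in the induction library was Ndufs7, which carries the last iron-sulfur cluster of complex I, at 175 CPM in cluster 1 and 46.3 CPM in cluster 6, a ratio of 3.78. Ndufb6, a membrane arm subunit, followed at 204 CPM in cluster 1 and 58.7 CPM in cluster 6. Smim27 lies on the other strand at Ndufb6 and shares a stretch with it, so the counts of Ndufb6 are uncertain. In the expansion library the widest was Uqcrb, at 638 CPM in cluster 2 and 199.8 CPM in cluster 4, and in the induction library Uqcrb also peaked in the Saa2 cluster at 913 CPM. Clusters with few cells have larger counting error, and the highest and lowest of 7 values differ even where nothing sets them apart.

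Among mitochondrially encoded members at 20 CPM or more in every cluster, mt-Nd5 differed most between induction clusters. It had 596 CPM in cluster 2, 566 CPM in cluster 6 and 195.5 CPM in cluster 4. The rarer mt-Atp8 and mt-Nd6 had wider ratios there, on few UMIs. At the other end Uqcrfs1 had between 238 and 281 CPM over the expansion clusters and Uqcrh between 906 and 1116 CPM over the induction clusters. Of the members at that level these were the most even over the clusters of their library.

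Each library held cells with Xist UMIs and no UMIs of Y-linked genes, and cells with the reverse, so each pooled cells of at least 1 female and at least 1 male source. There were 412 Xist cells and 503 Y cells in the induction library, and 325 Xist cells and 505 Y cells in the expansion library. Cells with both kinds of UMI numbered 22 (1.77%) in the induction library and 275 (23.1%) in the expansion library, and cells with neither 308 in the induction library and 86 in the expansion library. These cells are left out of the comparisons that follow, so the kinds of cell were not drawn alike from the 2 libraries; the part of depth, free RNA and doublets in this was not tested. Xist cells had the lower mitochondrially encoded share in both: 5.42% in Xist cells and 7.29% in Y cells of the induction library, 5.77% in Xist cells and 6.75% in Y cells of the expansion library. Nuclear shares of all UMIs hardly differed, at 3.48% in Xist cells and 3.50% in Y cells of the induction library, and 3.09% in Xist cells and 3.06% in Y cells of the expansion library. Outside mitochondrial and ribosomal protein genes they were 4.88% in Xist cells and 4.99% in Y cells of the induction library. In the expansion library the order was the other way, with 5.26% in Xist cells and 5.02% in Y cells. Induction cluster 5, led by Slco1b2 and Slc22a30, and expansion cluster 6, also with Slc22a30, were 97.0% Xist cells (induction) and 84.1% Xist cells (expansion). Their mitochondrially encoded shares of 5.48% in induction cluster 5 and 5.82% in expansion cluster 6 lay below those of their libraries.

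Compared between media within 1 kind of cell, the nuclear members had a log2 ratio of 0.17 (0.16 to 0.18) in Xist cells and 0.19 (0.18 to 0.20) in Y cells. The median gene stood at 0.29 in Xist cells and 0.21 in Y cells, so relative to it the nuclear members were at -0.12 in Xist cells and -0.019 in Y cells. The mitochondrially encoded members had a log2 ratio of -0.090 in Xist cells and 0.11 in Y cells, and relative to the median gene -0.38 in Xist cells and -0.10 in Y cells. For the mitochondrial complex I genes it was -0.23 in Xist cells and 0.050 in Y cells. The labels give no animals, and each kind of cell may come from 1 animal, so kind of cell and animal cannot be told apart.

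Among single members, Ndufa8 had 170 CPM in Xist cells of the induction library and 132 CPM in those of the expansion library (0.37, 0.21 to 0.52), and 251 CPM in Y cells of the induction library and 121 CPM in those of the expansion library (1.05, 0.93 to 1.17). The intervals of these ratios do not overlap. Uqcrq was positive in both, at 0.73 in Xist cells and 0.93 in Y cells, and so was Sdha, at 0.74 in Xist cells and 0.62 in Y cells, and Ndufa4, at 0.66 in Xist cells and 0.78 in Y cells. Atp5k was negative in both, at -0.42 in each, and so was mt-Nd3, at -0.95 in Xist cells and -0.61 in Y cells. Atp5sl had opposite signs, with 64 UMIs in Xist cells of the induction library and 52 UMIs in those of the expansion library (1.72), beside 25 UMIs in Y cells of the induction library and 83 UMIs in those of the expansion library (-0.15, -0.86 to 0.51). Differences between the kinds of cell were not tested.

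**Figure D4:**
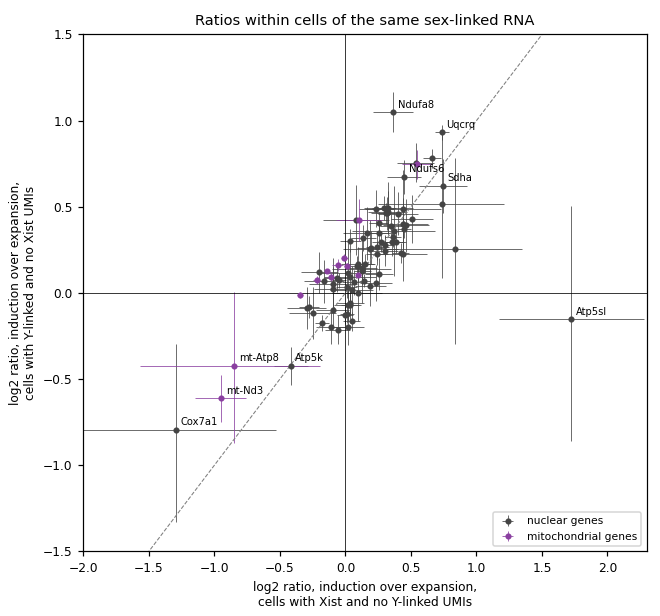
Log2 ratio of induction over expansion of each measured member within Xist cells (horizontal axis) and within Y cells (vertical axis), with counting intervals; the dashed line marks equal ratios. Most members lie near the line, Ndufa8 lies above it (0.37 in Xist cells, 1.05 in Y cells) and Atp5sl far to its right (1.72 in Xist cells, -0.15 in Y cells).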

How the data were processed

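The authors deposited a matrix of whole UMI counts for each library. Cell Ranger 2.1.1 and mm10 are the tool and build in the submitters' processing notes, and no annotation release or barcode filter is given in the sources used here. Droplet single-cell RNA was sequenced from 1 library per medium, with 1275 barcodes in the induction library and 1208 in the expansion library. No cell annotation was used. Here cells with at least 500 genes and at most 25% mitochondrially encoded UMIs were kept, and their counts were summed per library and divided by the library's total (CPM).

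With 1 library per group no test between media was possible, edgeR and other count models included. Levels have exact Poisson intervals, ratios exact conditional binomial intervals and shares Clopper-Pearson intervals (95%, counting error only). A gene is called where it is at least 2-fold apart and its interval leaves out a ratio of 1, among genes of at least 10 CPM in the higher library. A count of 0 allows up to 3 UMIs, or 0.326 CPM in the induction library and 0.102 CPM in the expansion library. On simulated Poisson counts for 11956 genes none of 6574 unchanged genes was called, and all 100 genes given a log2 change of 1.5 were. The true ratio lay in 94.9% of the intervals of unchanged genes. It lay in 93% of those at a log2 change of 1.5 and 92% at 3. The intervals assume the same Poisson model, so this checks the code and not the variation between cells, cultures or libraries.

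Clusters came from Leiden clustering (scanpy 1.11.5, resolution 0.6, 20 principal components of 2000 variable genes, 15 neighbours), and their leading genes are the 5 with the largest fold over other cells among genes of at least 50 CPM. Doublets were left in; Scrublet, tried as an alternative, marked 2 induction and 4 expansion cells, too few to rely on. Motifs were searched as exact letters in RefSeq promoter windows. Copies were sought with BLAST 2.17.0 (at least 95 bases at 98% identity). Such a stretch is shared with another annotated gene by 28 of the 87 nuclear members, and for 17 a sharing gene is counted in the files. Among the members named above these are Ndufb6 (Smim27), Ndufb8 (Gm20538), Cox4i1, Uqcrc2, Atp5g1, Atp5h, Atp5j and Atp5l. The counts of these members are therefore less certain. Of the 13 mitochondrially encoded members, 7 share such a stretch with another annotated gene, and for 0 of them is a sharing gene counted in the files. They are mt-Nd3, mt-Nd4, mt-Nd4l, mt-Co1, mt-Co2, mt-Co3 and mt-Atp6. The members and lists were chosen with earlier results of these data known. Every gene of the symbol rule may be named, though the values of 1 member are not reported here; from each other list, the most abundant gene and the 2 largest ratios of at least 20 CPM. Alternatives were other filters on cells, scalings, weights, thinning, doublet removal, Xist or Y cells alone and cells without G2/M transcripts, and other minimum levels and folds.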

Additional observations from a re-analysis of the deposited data

How the results depend on the processing

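The log2 ratio of the nuclear members, 0.19 as reported, was 0.19 with no filter on cells, without Scrublet's doublets and in Y cells alone. It was 0.20 at 1000 genes and 10% mitochondrial UMIs, 0.21 with equal weight per cell, 0.21 thinned, 0.17 in Xist cells and 0.21 without G2/M cells. It turned negative on a total without mitochondrially encoded and ribosomal protein genes (-0.032) and scaled to the median gene (-0.025). The ratio of the mitochondrially encoded members, 0.089, was 0.12 (no filter), 0.090 (doublets), 0.11 (Y cells), -0.056 (stricter filter), 0.15 (equal weight), 0.16 (thinned), -0.090 (Xist cells), 0.098 (G2/M), -0.14 (smaller total) and -0.13 (median gene). Its direction therefore rests on the scaling and on the cells kept; the cause was not tested beyond these settings. The count of members at least 2-fold apart, 0, was 1 (Cox7a1) on the smaller total, scaled to the median gene and with equal weight. Over all measured genes the shares were 11.45%, 11.3% and 13.5%. The count was 3 thinned (Cox7a1, Uqcrq, Atp5s), 2 in Xist cells (Atp5sl, Cox7a1) and 1 in Y cells (Ndufa8). There the shares over all measured genes were 15.8%, 14.7% and 12.6%. With no minimum level it was 1 (Ndufa4l2), against 6.72% of all genes, and at 1.5-fold 10, against 28.3%. Cox7a1, Atp5s, Atp5sl and Ndufa4l2 rest on few UMIs. Of the 91 measured members, 39 were positive and 12 negative in every alternative and 40 changed sign in at least 1, 22 of them apart from the 2 scalings. No paired analysis was possible because each group holds 1 library and the labels pair no samples. Depth limits genes below 10 CPM, where a library of the induction medium's size holds under 100 UMIs.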
